A study of Mus musculus with 4 samples.

Results

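The AP-1 and early growth response (EGR) factors are transcription factors, many of whose genes respond within minutes to growth signals, stretch or stress. They were described here through 10 genes chosen by symbol: Fos, Fosb, Fosl2, Jun, Junb, Jund, Egr1, Egr2, Nab2 and Myc. The 10 genes were chosen with earlier results of these data known. They are 10 of the 22180 genes named on the array, and 12 probe sets map to exactly 1 of their symbols. Jund and Nab2 have a pair of probe sets each and the other genes 1. Where a gene had more than 1 probe set, the one with the highest mean over the 4 arrays stood for it. Total RNA of the quadriceps muscle was measured on Affymetrix whole-transcript arrays, 1 array per mouse. The NF90-NF45 double transgenic mice (dbTg), which carry transgenes for both proteins of the NF90-NF45 RNA-binding complex, were a male (dbTg 1) and a female (dbTg 2), both 16 weeks old. The wild-type mice (WT) were a male of 17 to 18 weeks (WT 1) and a female of 16 weeks (WT 2). The sources used here give neither the strain nor the promoters that drive the transgenes. All values below are limited in precision by the 2 arrays in each group, and an exact permutation test of one gene cannot give a p below 0.333.

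AP-1 is a dimer of basic leucine zipper proteins. A Jun protein pairs with another Jun or with a Fos protein, and the dimer binds the DNA motif TGANTCA. Jun, Fos, Fosb and Egr1 are classic immediate early genes, induced through MAP kinases, serum response factor and its partners, and then shut off by feedback. Egr1 and Egr2 encode zinc finger activators of a GC-rich site. Nab2 encodes a corepressor that binds EGR proteins and dampens their activity, and it is itself a known target of EGR proteins. Myc encodes a helix-loop-helix leucine zipper factor of growth and ribosome production. In muscle these genes are known to respond to contraction and injury, and JunB is known to help maintain fibre size.

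The promoter of Nab2 is shown because Nab2 was the gene of the 10 with the clearest difference, and 3 shorter stretches show the motif letters found near the starts of other members. All come from RefSeq windows of 300 bases in build GRCm38.p6 (250 before and 50 after an annotated start), which the tables held for 8 of the 10 genes. Egr1 and Myc are named only. In the Nab2 window, on the minus strand at chr10:127666654-127666953, capitals mark the bases from the annotated start on. In the others capitals mark a motif, which is GCGGGGGCG, a form of the EGR site, for Fosl2 (plus strand, chr5:32136357-32136436) and Fosb (minus strand, chr7:19310052-19310131), and a CArG box, the core that serum response factor binds, for Egr2 (plus strand, chr10:67537761-67537841).
Nab2: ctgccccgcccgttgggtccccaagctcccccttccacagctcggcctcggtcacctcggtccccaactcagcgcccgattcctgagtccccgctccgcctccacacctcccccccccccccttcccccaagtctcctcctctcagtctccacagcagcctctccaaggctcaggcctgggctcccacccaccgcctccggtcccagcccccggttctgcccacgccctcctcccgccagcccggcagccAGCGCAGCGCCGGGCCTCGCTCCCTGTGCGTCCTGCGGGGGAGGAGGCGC
Fosl2: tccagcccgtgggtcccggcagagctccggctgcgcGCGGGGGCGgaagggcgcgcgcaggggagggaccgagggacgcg
Fosb: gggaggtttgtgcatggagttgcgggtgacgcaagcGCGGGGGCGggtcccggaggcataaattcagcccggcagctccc
Egr2: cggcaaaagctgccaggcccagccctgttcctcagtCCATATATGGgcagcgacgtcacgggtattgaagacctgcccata

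The motifs searched on both strands were the CArG box, TGANTCA, TGACGTCA (the cAMP response element, whose letters do not match TGANTCA), GCGTGGGCG, GCGGGGGCG and CACGTG (the E-box that Myc binds). Over all 32851 windows in the table, 1.63% held a CArG box, 2.91% GCGGGGGCG, 0.612% GCGTGGGCG, 7.81% TGANTCA, 1.79% TGACGTCA and 7.15% CACGTG. GCGGGGGCG stood in the Fosl2 window, with its first base 79 bases before the annotated start, and in the Fosb window, 50 bases before it. Of the 5 Egr2 windows, which belong to different annotated starts and partly overlap, 4 held a CArG box and 1 held CACGTG. Overlapping windows held the same CArG box, so these are not 4 separate sites. The window at chr10:67537316-67537615 does not overlap the others that held one, so its CArG box is a separate site. None of the 6 motifs was found in the windows of Nab2, Jun, Jund, Junb and Fos. The Nab2 window was 74% G and C, against a median of 52.7% over all windows and 46.7% in the Jund window. A match or its absence in these windows describes letters only.

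As a check of the NF45 transgene, Ilf2, which encodes NF45, read 10.36 and 10.16 on the dbTg arrays, against 5.03 and 5.04 on the WT arrays (deposited log2 values). Of 2 transgene products listed, only Ilf2 had a probe set with exactly 1 symbol, so the other was not checked. The deposited values are RMA values on the log2 scale. Array medians over all probe sets lay between 1.55 and 1.60, and upper quartiles were 2.98 to 2.99 in dbTg, against 2.78 to 2.80 in WT. Acta1, the skeletal muscle actin gene, read 11.16 and 11.06 in dbTg, against 11.02 and 11.05 in WT, and the 14 muscle fibre markers had a median of 10.51 and 10.34 in dbTg, against 10.40 and 10.35 in WT. All 10 chosen genes passed the filter on dim genes (a mean of at least 1.48 over the 4 arrays), Egr2 with a mean of 1.51. Over the 13308 tested genes, the array medians were 3.12 and 3.10 in dbTg, against 2.87 and 2.85 in WT. Centring the arrays on these medians therefore lowers every difference by the same amount, while centring them on the medians over all probe sets changes little. Groups were compared with limma over the tested genes. A difference below is dbTg minus WT on the log2 scale, with the moderated standard error (SE), its 95% interval (not adjusted for the number of genes) and the Benjamini-Hochberg adjusted p over all tested genes. The threshold was an adjusted p of 0.05.

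Nab2 rose in dbTg muscle by its brighter probe set, and no other of the 10 genes passed the test in either direction. The dimmer probe set of this corepressor gene did not repeat the difference, and the call ended under some other settings, as given below. The differences of Jund and Jun were positive with limma unadjusted p under 0.05, but did not pass the threshold after adjustment. On the deposited values Fos, Fosb and Egr1 differed by less than 0.2 on the log2 scale, with overlapping groups. Centring on the medians over the tested genes gave -0.21, -0.30 and -0.40, none past the threshold. So 1 of 10 was called higher and 0 lower, where 2.01% of all tested genes were called higher and 0.203% lower (267 and 27 genes). These were 124 and 65 genes after centring each array on its median over the tested genes, and 308 and 24 after centring on its median over all probe sets. Before adjustment, that is at an unadjusted limma p below 0.05, 3 of the 10 were higher and 0 lower, where 14% and 4.64% of all tested genes were. The median difference of the 10 genes was 0.24, against 0.089 over all tested genes. A count of 1 call in 10 genes is too small to be read against these shares. The 10 genes were also chosen with earlier results of these data known, so the shares are a description only. The values of each gene are therefore given below.

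**Figure D1:**
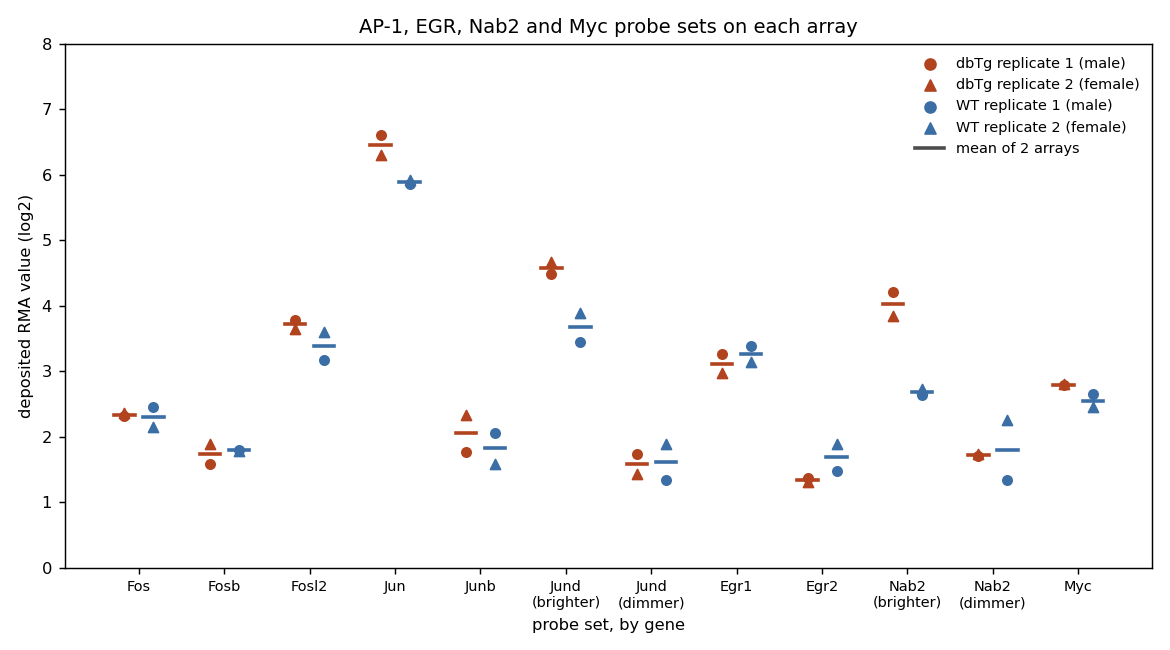
Deposited RMA values (log2, vertical axis) of the 12 probe sets on each of the 4 arrays, with dbTg left of WT for each probe set; circles are the males, triangles the females and bars the mean of 2 arrays. The brighter Nab2 probe set reads 4.21 and 3.85 in dbTg, against 2.63 and 2.74 in WT, while the dimmer probe sets of Nab2 and Jund lie under 2.3 and overlap.

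The corepressor gene Nab2 read 4.21 in dbTg 1 and 3.85 in dbTg 2, against 2.63 in WT 1 and 2.74 in WT 2. Both dbTg arrays lay above both WT arrays, with a gap of 1.11 between the nearest arrays. Its mean was 4.03 ± 0.26 in dbTg and 2.69 ± 0.07 in WT (SD, n = 2 each), a 2.54-fold difference. The log2 difference was 1.35 (SE 0.23, 95% interval 0.80 to 1.89, limma adjusted p = 0.0429), and 273 of the 13308 tested genes, 2.05%, had a difference at least as large. The dimmer Nab2 probe set read 1.70 and 1.73 in dbTg, against 1.34 and 2.26 in WT. There the WT arrays enclosed the dbTg arrays, and the difference was -0.08, so the dimmer set did not repeat the difference. Its mean over the 4 arrays was 1.76, near the array medians of 1.55 to 1.60. Whether so dim a probe set could show a change was not tested. The call of Nab2 rested on the brighter probe set and ended with the mean of both (difference 0.63, limma adjusted p = 0.242). It was also close to the threshold. The adjusted p was 0.0758 after median centring over the tested genes and 0.0395 after median centring over all probe sets. It was 0.0919 after quantile normalization of the tested genes, 0.0567 without a filter on dim genes, 0.0971 with the replicate number, which here is also sex, as a block, and 0.28 and 0.263 without dbTg replicate 1 and dbTg replicate 2.

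Nab2 overlaps 1 gene in RefSeq, Stat6, which lies on the opposite strand and encodes a signal transducer of interleukin responses. Stat6 read 4.37 and 4.54 in dbTg, against 3.91 and 3.77 in WT (difference 0.62, limma adjusted p = 0.162). Whether probes of the Nab2 sets lie in the shared stretch could not be looked up in the sources used here, and the part of that overlap in the Nab2 difference was not tested.

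Egr1 and Egr2 had negative differences that did not pass the test. Egr1, the EGR factor best known from growth signals, read 3.26 and 2.97 in dbTg, against 3.39 and 3.14 in WT. These arrays interleave, and the males read above the females in both groups. The difference was -0.15 (SE 0.23, limma adjusted p = 0.779). On the deposited values its interval ran from -0.70 to 0.40, which leaves out a rise above 1.32-fold and a fall beyond 1.62-fold. These bounds depend on the normalization, since the difference was -0.40 after median centring over the tested genes. Egr2, known for the myelin programme of Schwann cells, read 1.37 and 1.30 in dbTg, against 1.48 and 1.89 in WT. Both dbTg arrays were lower, by 0.11 between the nearest arrays, but the difference of -0.35 (SE 0.20, interval -0.83 to 0.13) had a limma adjusted p of 0.413. Its mean lies just above the filter on dim genes. Gm32255 overlaps Egr2 in RefSeq. Of the 10 genes, 1 (Egr2) had both dbTg arrays below both WT arrays, where 16.3% of all tested genes did.

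Among the Jun genes, Jund had the largest difference by its brightest probe set, but not with probe sets averaged per gene. Jund, which encodes the Jun protein that is known to be expressed steadily in resting cells, read 4.49 and 4.67 in dbTg, against 3.44 and 3.90 in WT. The groups did not overlap, and the nearest arrays were 0.59 apart. The means were 4.58 ± 0.13 in dbTg and 3.67 ± 0.32 in WT (SD, n = 2 each), and the difference of 0.91 (SE 0.23, interval 0.36 to 1.46) had a limma unadjusted p of 0.00596 and an adjusted p of 0.101. A difference at least as large was found for 5.31% of all tested genes. Its dimmer probe set read 1.73 and 1.43 in dbTg, against 1.34 and 1.89 in WT, and differed by -0.03. That set had a mean of 1.60 over the 4 arrays and also lies near the array medians over all probe sets. With the mean of both probe sets the difference of Jund was 0.44, below that of Jun (0.56). Without WT replicate 2 it was 1.14 and passed the threshold (adjusted p = 0.0302), under the assumption that the lone WT array varies like the dbTg arrays.

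Jun, the founding member of the family, read 6.60 and 6.30 in dbTg, against 5.86 and 5.92 in WT. Every dbTg array lay above every WT array, by at least 0.38. The difference was 0.56, or 1.48-fold (SE 0.17, interval 0.15 to 0.98, limma unadjusted p = 0.0151, adjusted p = 0.151). Junb, a Jun protein that can oppose Jun at some promoters, read 1.77 and 2.34 in dbTg, against 2.06 and 1.58 in WT. Its arrays interleave, the spread within each group (SD 0.40 in dbTg and 0.33 in WT) exceeded the difference of 0.23, and the interval ran from -0.43 to 0.88 (limma adjusted p = 0.714). Whether Jund or Jun differed more than Junb was not tested.

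The Fos genes encode the partners of Jun proteins. Fos itself read 2.32 and 2.35 in dbTg, against 2.46 and 2.15 in WT. The dbTg arrays fell between the WT arrays, and the difference was 0.04 (SE 0.22, limma adjusted p = 0.95). On the deposited values its interval ran from -0.48 to 0.56, which leaves out a rise above 1.47-fold and a fall beyond 1.40-fold. These bounds depend on the normalization, since the difference was -0.21 after median centring over the tested genes. The mean of Fos over the 4 arrays was 2.32, below the array medians over the tested genes. Whether so dim a probe set shows a change in full was not tested. Fosb, another inducible member, read 1.58 and 1.89 in dbTg, against 1.80 and 1.78 in WT, and differed by -0.06 (SE 0.20, interval -0.53 to 0.41, limma adjusted p = 0.919). There the dbTg arrays enclosed the WT arrays, and the difference was -0.30 after median centring over the tested genes. Fosl2, which encodes Fra-2, a longer-lived Fos protein, read 3.79 and 3.65 in dbTg, against 3.16 and 3.60 in WT. The groups did not overlap, but only by 0.05, and the difference of 0.34 (SE 0.24, interval -0.23 to 0.90) had a limma adjusted p of 0.503. Without WT replicate 1 the difference of Fosl2 was 0.12, and without WT replicate 2 it was 0.55.

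Myc read 2.79 and 2.80 in dbTg, against 2.66 and 2.45 in WT. Both dbTg arrays lay above the WT arrays, by 0.13. The difference of 0.24 (SE 0.21, interval -0.27 to 0.75) had a limma adjusted p of 0.604, and it was -0.01 after median centring over the tested genes, so no direction is given for Myc. That centring lowered the differences to 0.32 for Jun, 0.09 for Fosl2, -0.40 for Egr1 and -0.60 for Egr2, none of which passed the threshold. In all, 5 of the 10 genes (Nab2, Jund, Jun, Fosl2 and Myc) had both dbTg arrays above both WT arrays, where 33.7% of all tested genes did.

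**Figure D2:**
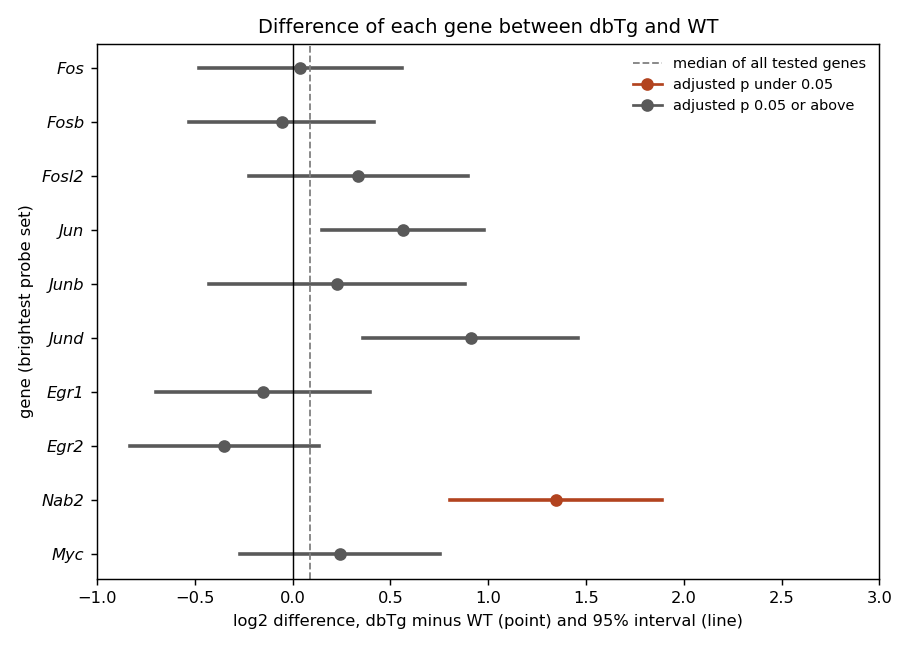
Log2 difference, dbTg minus WT (horizontal axis), of the 10 genes with its 95% interval (line); the dashed line is the median of all tested genes, 0.089. Nab2 passes the threshold, the intervals of Jund and Jun lie above 0 without an adjusted p under the threshold, and the other 7 intervals include 0.

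The groups hold 1 male and 1 female each, so the difference was also taken within each sex, with 1 array on each side and no test. Nab2 differed by 1.58 in the male pair and by 1.11 in the female pair, Jund by 1.04 and 0.78, and Jun by 0.75 and 0.38. These 3 genes were thus higher in dbTg in both pairs. Fosl2 differed by 0.62 in the male pair and by 0.05 in the female pair, Myc by 0.13 and 0.35. Egr1 (-0.13 in males and -0.17 in females) and Egr2 (-0.11 and -0.59) were lower in both pairs. Fos, Fosb and Junb had opposite signs in the 2 pairs. So 5 of 10 genes were higher in both pairs, where 41.2% of all tested genes were, and 3 of 10 had opposite signs, where 36.7% did. Replicate number and sex coincide and cannot be told apart, and in the male pair the WT mouse was the older one.

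**Figure D3:**
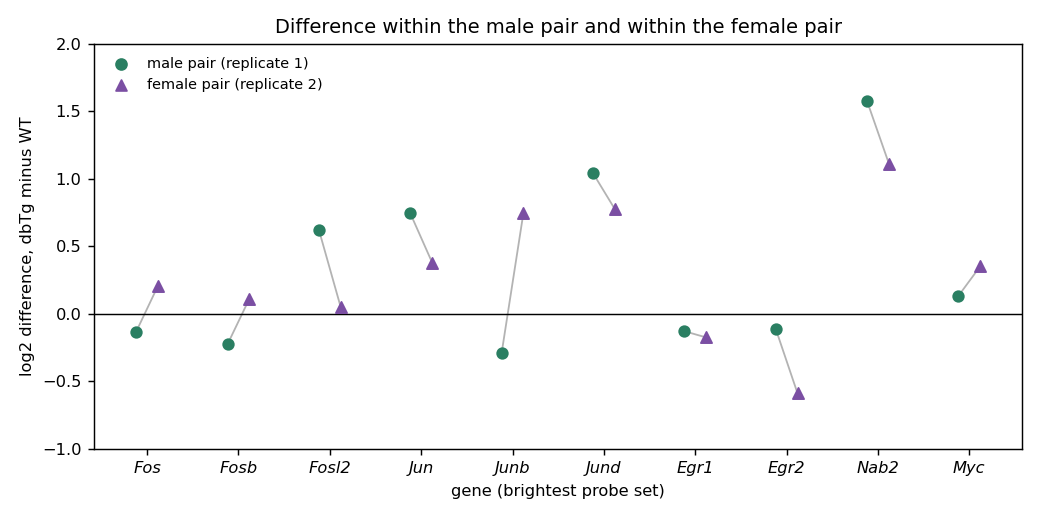
Log2 difference, dbTg minus WT (vertical axis), of the 10 genes within the male pair (circles) and the female pair (triangles), 1 array against 1 in each. Nab2, Jund and Jun lie above 0 in both pairs, while Junb lies at -0.29 in the male and at 0.75 in the female pair.

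The profiles of the genes over the 4 arrays were compared as the root mean square distance between values centred on each gene's mean, over 4 arrays and as a description. Of the 10 genes, Nab2 (a range of 1.58) and Jund (a range of 1.23) spanned at least 1 on the log2 scale. The 3 tested genes closest to Nab2 were Ctsh, which encodes the lysosomal protease cathepsin H (distance 0.0781), the microRNA locus Mir703 (0.0795) and Eif1a, a translation initiation factor gene (0.0868). Ctsh read 5.15 and 4.74 in dbTg, against 3.73 and 3.68 in WT. The closest to Jund were Mcm6, a subunit gene of the replicative helicase (distance 0.0158), Uprt (0.0163) and 4930430F08Rik (0.0308). Mcm6 read 2.38 and 2.57 in dbTg, against 1.36 and 1.77 in WT. Among the 10 genes themselves, Fos and Myc had the closest profiles (distance 0.108), both with little variation.

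The other genes of these pathways were described by lists, none of which was tested as a set. Their counts are to be read beside the shares over all tested genes. These were 2.01% called higher and 0.203% lower, and 14% higher and 4.64% lower before adjustment. Of the 12 tested genes among 15 other AP-1 relatives and partners, Atf3 rose and no other passed the threshold. Atf3, a stress-induced repressor that can pair with Jun proteins, read 4.53 and 5.47 in dbTg, against 2.02 and 2.42 in WT. The dbTg arrays were more than 2 above the WT arrays on the log2 scale, and the difference was 2.78 (SE 0.34, limma adjusted p = 0.0183). The median of the list was -0.05, against 0.089 over all tested genes. Without dbTg replicate 1 the adjusted p of Atf3 was 0.0782, and without dbTg replicate 2 it was 0.151. Of the 4 other EGR family and corepressor genes, 2 were tested and 0 passed in limma (0 also before adjustment). Nab1, the second EGR corepressor gene, differed by 0.49 (adjusted p = 0.361), and Egr3, known from muscle spindles, by 0.27 (adjusted p = 0.602).

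Upstream of the immediate early genes, 15 kinases, serum response factor and its partners were tested and 0 passed in limma, with 0 higher and 1 lower before adjustment (median 0.05). Mapk9, which encodes the kinase JNK2 that phosphorylates Jun, read 4.60 and 4.60 in dbTg, against 5.40 and 5.11 in WT, and differed by -0.66 (limma adjusted p = 0.134). Map2k2, a kinase of the ERK pathway, differed by -0.43 (adjusted p = 0.299). Of 12 MAP kinase phosphatases and feedback inhibitors, 0 passed in limma in either direction, but 6 were higher and 0 lower before adjustment, where 14% of all tested genes were higher, and 11 differences were positive (median 0.61). Dusp4 and Dusp5, which encode nuclear phosphatases of ERK, differed by 1.21 and 0.96 (adjusted p = 0.0901 and 0.0854). Dusp4 read 3.65 and 2.90 in dbTg, against 2.00 and 2.13 in WT.

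Of 25 tested other immediate early genes, 0 passed in limma, with 16 positive and 9 negative differences (median 0.24). Before adjustment 6 were higher and 1 lower, where 14% and 4.64% of all tested genes were. Sik1, a salt-inducible kinase gene, read 4.95 and 5.54 in dbTg, against 4.07 and 3.88 in WT, and differed by 1.27 (limma adjusted p = 0.0559). Over the alternatives its adjusted p ran from 0.0273 without WT replicate 1 to 0.417 without dbTg replicate 2, and it passed under 5 of them. Btg2, an antiproliferative gene, differed by 0.94 (adjusted p = 0.1005). Of the 11 tested genes of the MYC network, 0 passed in limma, with 0 higher and 1 lower before adjustment (median 0.24). Mlxipl, the carbohydrate response factor, differed by -0.49 (adjusted p = 0.258), and Mxd4, a MYC antagonist gene, by 0.66 (adjusted p = 0.274).

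Known targets were listed for both groups of factors. Of 12 tested targets of AP-1 and EGR factors, 1 rose (Vim), where 2.01% of all tested genes were called higher, and the median was 0.54. Before adjustment 6 were higher and 1 lower, where 14% and 4.64% of all tested genes were. Vim, which encodes the intermediate filament protein vimentin, read 7.88 and 8.13 in dbTg, against 6.91 and 7.11 in WT (difference 0.99, limma adjusted p = 0.0379). Its call ended under 8 of the 14 alternatives, with an adjusted p of 0.0822 after median centring over the tested genes, 0.054 after quantile normalization, and 0.186 and 0.337 without dbTg replicate 1 and dbTg replicate 2. Many genes of this list are known to be expressed in macrophages and fibroblasts as well. Of 15 tested MYC targets, 0 passed in limma (median 0.19). Before adjustment 4 were higher and 0 lower, beside the same 14% and 4.64%. Ccnd2, a D-type cyclin gene, differed by 0.86 (adjusted p = 0.146), and Npm1, the nucleolar protein nucleophosmin gene, by 0.44 (adjusted p = 0.207).

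**Figure D4:**
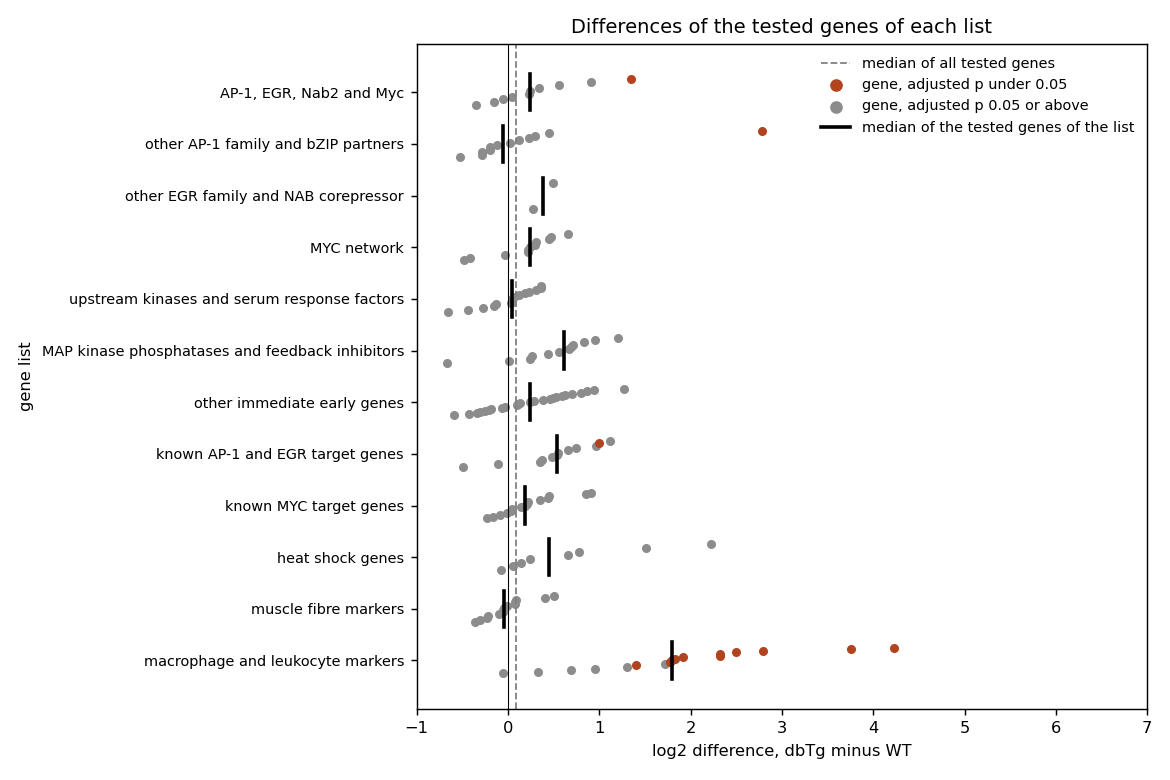
Log2 difference, dbTg minus WT (horizontal axis), of each tested gene (points) in 12 gene lists, with the median of each list (bars) and of all tested genes (dashed line). The macrophage and leukocyte markers lie furthest right with a median of 1.80, and the muscle fibre markers have a median of -0.05.

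Markers of other cells differed in both directions, and those of macrophages and leukocytes had the highest median difference of the cell marker lists. Of 17 tested macrophage and leukocyte markers, 11 rose and 0 fell (median difference 1.80), where 2.01% of all tested genes were called higher and 0.203% lower. The summed linear values of the 20 markers on the array were 829 and 717 in dbTg, against 168 and 145 in WT. The 11 calls became 5 with the replicate block, and 1 when either of the dbTg arrays was left out. Ptprc, the pan-leukocyte antigen gene, read 5.03 and 4.63 in dbTg, against 2.05 on both WT arrays, and Cd68, a macrophage glycoprotein gene, read 6.33 and 6.38, against 3.01 and 2.19. In bulk muscle, more cells of a type and more RNA per cell cannot be told apart. The 14 muscle fibre markers had 0 calls in limma, 2 higher and 0 lower before adjustment, a median difference of -0.05, and summed linear values of 19480 and 18450 in dbTg, against 18780 and 19530 in WT. Of 8 heat shock genes, 0 passed in limma (median 0.45). Before adjustment 4 were higher and 0 lower, where 14% and 4.64% of all tested genes were. Hspa1b, an inducible heat shock protein gene, read 5.59 and 5.80 in dbTg, against 2.45 and 4.49 in WT (difference 2.23, adjusted p = 0.111), and Hspa1a differed by 1.52 (adjusted p = 0.0618). Hspa1b differed by 1.20 without WT replicate 1 and by 3.25 without WT replicate 2. With 1 WT array left, assumed to vary like the dbTg arrays, both genes passed the threshold, and without either dbTg array neither did (adjusted p 0.366 and 0.504 for Hspa1b, 0.301 and 0.408 for Hspa1a, without dbTg replicate 1 and dbTg replicate 2). The part of these cells and of stress in the differences of Nab2, Jund, Jun and Atf3 was not tested.

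The remaining marker lists were as follows, by limma calls over all tested genes. Of all tested genes, 2.01% were called higher and 0.203% lower, and 14% and 4.64% were so before adjustment. Before adjustment, 6 of 9 tested satellite cell and myoblast markers and 6 of 7 tested adipocyte markers were higher, and 0 were lower. After it, satellite cell and myoblast markers had 2 of 9 higher and 0 lower (median 0.98), and adipocyte markers had 2 of 7 higher and 0 lower (median 1.31). Both counts were 0 after median centring over the tested genes, after quantile normalization, with the replicate block and without either dbTg array. They were 5 for the satellite cell and myoblast markers without WT replicate 1, and 5 for the adipocyte markers without WT replicate 2. Endothelial markers had 0 of 11 called, with 5 lower and 0 higher before adjustment (median -0.48). Fibroblast and progenitor markers had 0 of 9 called, with 4 higher before adjustment (median 0.49), and smooth muscle and pericyte markers had 0 of 9 called, with 1 higher and 2 lower (median 0.08).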

How the data were processed

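Quadriceps RNA of 2 dbTg and 2 WT mice was measured on 1 Affymetrix whole-transcript array each. The deposited values are log2 expression values that the authors made by RMA, per the labels, in Affymetrix Expression Console, as the submitters' processing notes name it. Neither its version nor the annotation build is stated there, and no presence calls were used. Of 41345 probe sets, 23521 had exactly 1 symbol in the platform annotation, 1814 several and 16010 none. Of those with 1 symbol, 23328 were matched to RefSeq (GRCm38.p6) by Entrez identifier, and 0 symbols changed. They gave 22180 genes, each represented by its brightest probe set, and the 13308 genes whose mean over the 4 arrays reached 1.48, the 40th percentile, were tested. The comparison was made in R 4.3.3 with limma 3.58.1 (lmFit and trended eBayes, with 4.76 prior and 2 residual degrees of freedom), two-sided, with Benjamini-Hochberg adjustment and a threshold of 0.05. The fit was also run on simulated data with normal errors drawn from its own fitted variances, without sex effects or array shifts. That run cannot show how the fit performs on these 4 arrays. SDs were taken over 2 arrays. The p-values rest on a variance that combines the spread within each group with a prior fitted over all tested genes. The spread within a group is here that between a male and a female. The members and lists were chosen with earlier results of these data known. Named genes were the 10 members, up to 5 called genes of each list or else the 2 with the smallest p-values, genes that define cell types, and for profile likeness 3 genes per member spanning at least 1 on the log2 scale. Stat6 was named after its values were seen, as the gene that overlaps Nab2. Alternatives were other normalizations, filters, probe set rules, variance models, the replicate number as a block and leaving out each array. For the genes and lists beside the members they were added after seeing the data, as was, for all results, centring each array on its median over all probe sets. The other median centring used the tested genes. The correlation of the deviations of same-numbered arrays was 0.0486 across genes, which are not independent replicates, and the numbers were not taken as pairs.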

Additional observations from a re-analysis of the deposited data

Results flagged for a closer look

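For 5 probe sets the difference between dbTg and WT had opposite signs in the 2 sexes. The difference between the sexes was not tested, since each side of each pair holds 1 array, and over all tested genes 36.7% had opposite signs. Junb differed by -0.29 in males and 0.75 in females, so the pairs were 1.04 apart. Fos differed by -0.13 and 0.21 (0.34 apart) and Fosb by -0.23 and 0.11 (0.34 apart). The dimmer probe set of Nab2 differed by 0.36 in males and -0.53 in females, a female minus male value of -0.89. The dimmer probe set of Jund differed by 0.39 and -0.46, a female minus male value of -0.86.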

How the results depend on the processing

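Of the 10 genes, 1 (Nab2) was called higher. The count was 1 with the filter at the 60th percentile (3 of the 10 were then not tested), with every probe set on its own, after median centring over all probe sets, without a trend and with robust eBayes. It was 0 after median centring over the tested genes, after quantile normalization, without a filter, with probe sets averaged per gene and with the replicate block, where the adjusted p of Nab2 was 0.0971. It ranged from 0 to 2 when 1 array was left out, 0 without either dbTg array and 2 (Nab2 and Jund) without WT replicate 2. The count of lower members was 0 under all 14 alternatives. The difference of Nab2 stayed between 0.63 and 1.53. Over all tested genes, 267 were called higher and 27 lower. These counts were 124 and 65 after median centring over the tested genes, 87 and 6 after quantile normalization, 165 and 7 without a filter, 63 and 2 with the replicate block, and 4 to 610 and 0 to 156 when 1 array was left out. With the filter at the 60th percentile 44 were lower, and without a trend 14. Median centring over the tested genes, which is meant by median centring from here on, called 189 genes in all and moved the median difference of all tested genes to -0.16. Signs changed for small differences. That of Fos was -0.21 after median centring, -0.13 after quantile normalization and -0.12 to 0.19 when 1 array was left out. That of Junb was -0.019 after median centring and -0.056 to 0.51 when 1 array was left out, that of Myc -0.0052 after median centring, that of Fosb -0.21 to 0.10 and that of Egr3 -0.00045 to 0.54 when 1 array was left out. The cause was not tested. Egr2, Fosb and Junb are the dim genes that the filter at the 60th percentile left out, and no presence call shows whether they stand above background.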
